A study of Mus musculus with 8 samples.

Results

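Distal sites open only in ESCs were the stretches of chromatin with an ATAC-seq peak in mouse embryonic stem cells (ESCs), no peak in mouse embryonic fibroblasts (MEFs) or at either sampled day of reprogramming, and no annotated transcription start site within 5 kb. ATAC-seq marks open chromatin through a transposase that cuts accessible DNA. The peaks of the 4 deposited lists were merged when they lay within 400 bp of each other, which gave 101701 regions. Of these, 17265 met all conditions and are called distal ESC-only regions or members, 17.0% of all regions and 35.7% of the 48318 regions with an ESC peak. The members were chosen by the presence of an ESC peak and the absence of peaks in the other 3 lists, so their ESC signal and the lack of signal elsewhere are descriptions and not findings.

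The series followed MEFs as they were reprogrammed by OSKM, the retrovirally delivered factors OCT4, SOX2, KLF4 and MYC, and held 8 libraries in 4 groups of 2. MEFs were wild type for the study's knockout allele, uninfected and taken from mid-gestation embryos. OSKM_D5 and OSKM_D10 were MEFs 5 and 10 days after the first infection with pMXs vectors, which also overexpressed a FLAG control, in ESC medium with vitamin C. ESCs were wild type and untransfected. MEFs, both reprogramming groups and 1 of the 2 ESC libraries are labelled C57BL/6J-OG2, a strain with a green fluorescent reporter under Oct4 sequence, and the other ESC library C57Bl6J. The labels put ESCs on feeder cells in serum and LIF medium, whereas the study's methods describe OG2 ESCs on gelatin in 2i/L medium. No sorting of the infected cells before ATAC-seq is named in the sources used here, so these lists describe whole cultures in which cells at different stages cannot be told apart. The medium, the strain of 1 library and the depth of each list, which is unknown, cannot be told apart from cell identity in anything that follows.

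Distal regulatory sites such as enhancers carry clusters of short sequences read by transcription factors, and open when enough of those factors are present. In ESCs, OCT4 and SOX2 bind side by side on a composite element, and ESRRB, KLF2, KLF4, KLF5, TFCP2L1, NANOG and the LIF effector STAT3 sustain naive pluripotency, the state of the early epiblast. Many regulatory sites active in mouse ESCs are known to lie in repeated DNA, copies of elements that once moved through the genome and carry the same factor sequences to many places.

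The sequences below come from distal ESC-only regions near naive pluripotency genes and were picked for their motif matches. Each is the 200 bp around the midpoint of the ESC peak on the plus strand of mm10, 5′ to 3′, from the RefSeq copy of GRCm38, in lower case with every match to the 18 searched motifs in capitals. By the naming rule, each gene is represented by the member within 50 kb with the most different motif names. The genes shown were in turn those whose chosen member held the most. The windows are thus not typical of the members near these genes, many of which held no match. The strongest member at Zfp42, with a fold enrichment of 7.35, held none, whereas the printed member stood at 2.49.

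Klf5, chr14:99340174-99340373: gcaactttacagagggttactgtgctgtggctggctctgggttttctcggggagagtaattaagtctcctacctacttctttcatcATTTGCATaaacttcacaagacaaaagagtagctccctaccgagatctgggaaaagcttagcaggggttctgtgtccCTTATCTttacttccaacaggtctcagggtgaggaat
Tcf7l1, chr6:72758483-72758682: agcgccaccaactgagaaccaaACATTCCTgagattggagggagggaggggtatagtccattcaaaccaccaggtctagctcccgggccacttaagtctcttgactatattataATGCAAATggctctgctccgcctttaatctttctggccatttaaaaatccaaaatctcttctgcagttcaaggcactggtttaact
Tfcp2l1, chr1:118663218-118663417: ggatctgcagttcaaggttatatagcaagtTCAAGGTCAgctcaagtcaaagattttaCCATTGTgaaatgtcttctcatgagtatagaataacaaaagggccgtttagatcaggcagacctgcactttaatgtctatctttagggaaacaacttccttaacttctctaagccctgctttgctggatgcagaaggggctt
Esrrb, chr12:86463768-86463967: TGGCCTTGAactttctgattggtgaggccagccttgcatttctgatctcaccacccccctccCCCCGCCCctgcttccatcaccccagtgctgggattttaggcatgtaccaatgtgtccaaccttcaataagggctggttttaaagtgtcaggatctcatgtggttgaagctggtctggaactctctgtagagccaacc
Zfp42, chr8:43295929-43296128: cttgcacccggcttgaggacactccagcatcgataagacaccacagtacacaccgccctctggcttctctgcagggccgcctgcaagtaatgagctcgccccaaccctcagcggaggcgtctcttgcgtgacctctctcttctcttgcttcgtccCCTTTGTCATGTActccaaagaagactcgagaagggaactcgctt
Nr0b1, chrX:86181155-86181354: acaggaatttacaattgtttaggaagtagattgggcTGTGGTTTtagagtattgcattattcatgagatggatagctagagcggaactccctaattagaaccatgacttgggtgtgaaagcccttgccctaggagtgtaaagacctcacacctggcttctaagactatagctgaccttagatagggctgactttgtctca
Sall4, chr2:168791228-168791427: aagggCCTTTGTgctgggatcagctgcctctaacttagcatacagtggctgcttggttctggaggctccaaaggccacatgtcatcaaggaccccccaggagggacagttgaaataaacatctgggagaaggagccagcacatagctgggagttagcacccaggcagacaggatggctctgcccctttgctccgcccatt

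The Klf5 window held the octamer read by OCT4 and a GATA match, the Tcf7l1 window a TEAD match and an octamer, and the Tfcp2l1 window an ESRRB and a SOX match. Klf5 and Tfcp2l1 encode naive pluripotency factors, and Tcf7l1 encodes a repressor that acts in the Wnt pathway. The Esrrb window held an NR5A2 and a KLF match. The Zfp42 window lay within the annotated span of its gene, chr8:43295063-43306980, which encodes the pluripotency marker REX1. Its SOX match overlapped an OCT4-SOX2 composite. Whether this window is exon sequence was not examined, so the composite there is a match of letters only. The Nr0b1 window was the only one of the 7 that was entirely repeat-masked sequence, and it held a RUNX match. The Sall4 window held a single SOX match.

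The next 4 windows show the OCT4-SOX2 composite where the authors' ESC fold enrichment was highest or the number of motifs greatest. They were chosen after their values were seen, are named by the nearest protein-coding start site, and are printed in the same way.

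Zfpm2, chr15:40417077-40417276: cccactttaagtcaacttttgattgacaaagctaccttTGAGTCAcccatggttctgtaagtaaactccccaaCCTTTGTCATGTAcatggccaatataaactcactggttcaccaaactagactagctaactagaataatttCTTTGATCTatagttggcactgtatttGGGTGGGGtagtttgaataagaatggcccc
Guca2a, chr4:119592466-119592665: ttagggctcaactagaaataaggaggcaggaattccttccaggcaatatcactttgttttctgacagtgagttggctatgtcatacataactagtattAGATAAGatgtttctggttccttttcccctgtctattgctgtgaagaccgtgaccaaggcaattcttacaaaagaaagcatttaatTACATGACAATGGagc
Epha5, chr5:85174001-85174200: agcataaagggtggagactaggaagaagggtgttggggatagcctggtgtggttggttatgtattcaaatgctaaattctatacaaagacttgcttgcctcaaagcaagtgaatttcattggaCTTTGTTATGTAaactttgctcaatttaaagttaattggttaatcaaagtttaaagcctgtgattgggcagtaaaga
9130204L05Rik, chr3:91030304-91030503: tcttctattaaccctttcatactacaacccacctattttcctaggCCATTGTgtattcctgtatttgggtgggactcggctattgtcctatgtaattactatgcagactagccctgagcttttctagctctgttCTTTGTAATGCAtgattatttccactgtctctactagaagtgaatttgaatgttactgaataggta

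The window nearest Zfpm2 was the 1 member of 17265 with at least 4 of the 10 pluripotency-related motifs. It held the composite with an overlapping SOX match, a TCF7L1 match and a KLF match, and also an AP-1 match. The windows nearest Guca2a, Epha5 and 9130204L05Rik had ESC fold enrichments of 6.21, 6.05 and 5.10, against a median of 3.41 over all members.

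The last pair shows sequence that recurred among members, which is described in full further on. Each line is the stretch of 120 bp with the most SOX, octamer and TEAD matches in the representative member of a family of related windows. Only matches to these motifs are in capitals here, and the other searched motifs were not marked.

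Family 1, chr6:141802896-141803015: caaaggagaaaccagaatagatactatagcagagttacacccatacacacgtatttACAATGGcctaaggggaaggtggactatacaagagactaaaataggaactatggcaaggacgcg
Family 3, chr2:154242662-154242781: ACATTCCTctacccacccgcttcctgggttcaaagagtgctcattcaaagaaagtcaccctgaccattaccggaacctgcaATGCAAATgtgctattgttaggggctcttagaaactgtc

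The copy of family 1 carried a SOX match, and the copy of family 3 a TEAD match and an octamer.

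Most distal sites open in ESCs had no counterpart in the other lists. Of 24974 distal regions with an ESC peak, 69.1% were members (95% Wilson interval 68.6% to 69.7%), whereas 31.0% of the 23344 ESC regions within 5 kb of a start site were ESC-only (30.4% to 31.6%). A MEF peak was present in 18.9% of the distal ESC regions, a day 5 peak in 18.1% and a day 10 peak in 20.2%. Of the 20250 distal ESC regions without a MEF peak, 14.7% had a peak at day 5 or day 10 (14.3% to 15.2%). Those 2985 regions are the closest comparison for the members and are called distal ESC regions with a reprogramming peak. The other comparisons are 7245 promoter-near ESC-only regions and 22502 distal MEF-only regions. As the deposited data hold 1 peak list per group, no p-value was computed, and all intervals cover counting error only and not differences between cultures or libraries.

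The members were mostly narrow and moderate peaks. Each held exactly 1 ESC peak. The width had a median of 503 bp, with 10% of members under 274 bp and 10% over 996 bp, and the members covered 10.1 Mb in all. Regions with a reprogramming peak are merges of peaks from several lists and were wider, with a median of 862 bp. The ESC fold enrichment given by the authors, a ratio over background, ran from 1.87 to 8.54 with a median of 3.41, and the median was 3.66 in distal ESC regions with a reprogramming peak and 3.27 in promoter-near ESC-only regions. When the distal ESC regions were divided into 10 equal parts by this fold enrichment, 71.0% of the lowest part were members (69.2% to 72.7%) and 63.8% of the highest part (61.9% to 65.7%). ESC-only status was thus found in every part by fold enrichment. The median −log10 q-value of the ESC peak was 3.38 in members and 4.52 in distal ESC regions with a reprogramming peak. In promoter-near ESC-only regions it was 3.20.

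**Figure D1:**
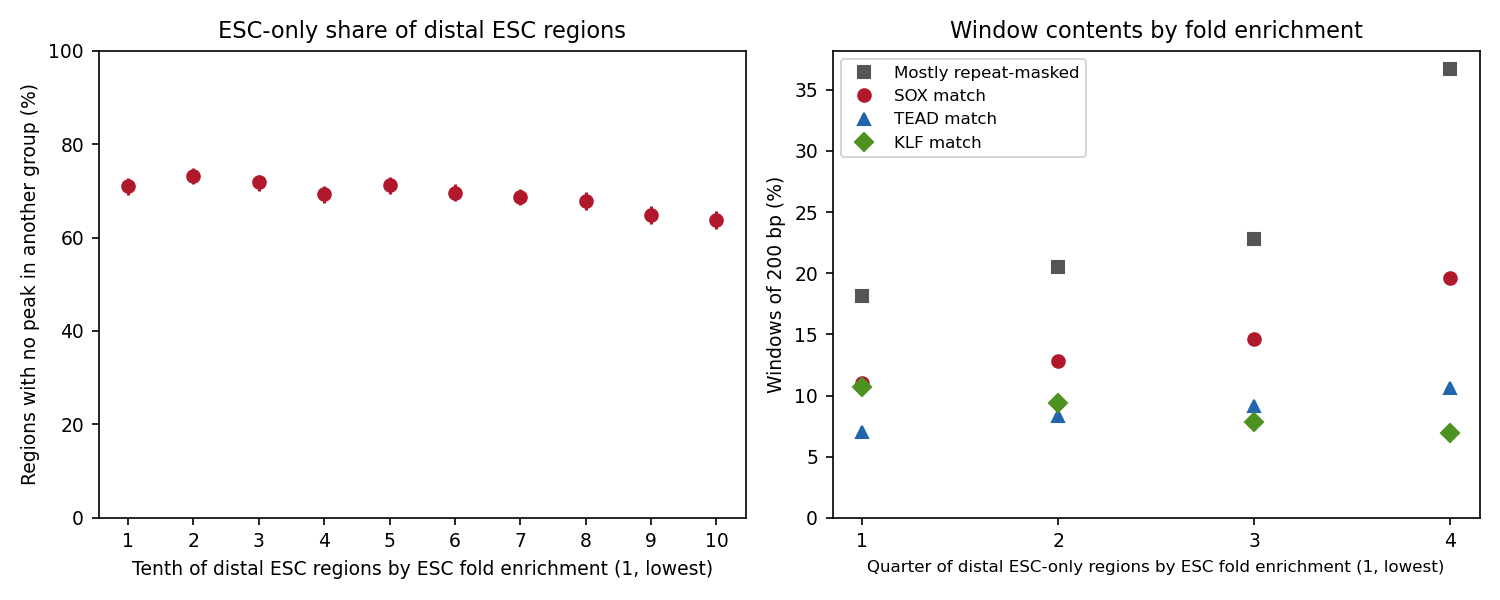
Left, the share of distal ESC regions with no peak in another group (%, bars are 95% Wilson intervals) in each of 10 equal parts by ESC fold enrichment, from 71.0% in the lowest to 63.8% in the highest. Right, the share of member windows (%) that were mostly repeat-masked or held a motif match, in each quartile of ESC fold enrichment. Repeat-masked windows went from 18.1% in the lowest to 36.7% in the highest quartile and SOX matches from 11.0% to 19.6%, whereas KLF matches went from 10.7% to 6.95%.

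At the boundary of the distance condition, members just inside and ESC-only regions just outside looked alike. There were 1048 members 5 to 6 kb from a start site with a median ESC fold enrichment of 3.36, and 950 regions 4 to 5 kb away with a median of 3.30. The nearest member lay 5001 bp from a start site and the farthest ESC-only region left out lay at 5000 bp. The smallest distance from a member to a peak of another group was 402 bp, set by the merging, and 26.0% of members had a peak of another group within 5 kb and 48.1% within 10 kb.

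Distal ESC-only regions lay on every chromosome, inside genes and between them. The median distance to the nearest start site was 18.9 kb, and to the nearest protein-coding one 44.8 kb. Of the members, 75.4% lay more than 10 kb from every start site, 18.8% more than 50 kb and 6.58% more than 100 kb, and the farthest lay at 686 kb. Introns held 43.8% of the members, exons 3.81%, and 52.4% lay in no annotated gene. The autosomes held 6.83 members per Mb and the X chromosome 2.51. This was no particular feature of the members, since distal MEF-only regions had 8.97 and 2.47 per Mb. Relative to all distal ESC regions of the same chromosome, members made up 76.9% on the X (73.2% to 80.2%) and 69.0% on the autosomes (68.4% to 69.5%).

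Many members had close neighbours. Counting members no more than 10 kb apart as a run, 1695 runs of 2 or more held 21.3% of all members (20.7% to 21.9%). Distal MEF-only regions, which were more numerous, were in runs in 27.0% (26.4% to 27.6%), and distal ESC regions with a reprogramming peak, which were fewer, in 4.09% (3.43% to 4.86%). The part of the number of regions in these shares was not tested. The longest run was 7 members over 37.5 kb within Clybl, a gene for a mitochondrial enzyme, at chr14:122263073-122300574. A second run of 5 members lay further along the same gene at chr14:122324064-122351710. Arl15, which encodes a small GTPase-like protein, held a run of 6 members over 28.0 kb. Ankfn1 and Nxpe3 each overlapped a run of 5, as did Aebp2, which encodes a partner of Polycomb repressive complex 2. Of these runs the one in Ankfn1 held the strongest peak, with a fold enrichment of 5.07.

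Some genes were the nearest to many members. Tenm4, which encodes a teneurin adhesion protein, was the nearest protein-coding gene of 27 members, Cntn5 of 26, Tbl1xr1 of 23, Ythdf3 of 22 and Cdh9 of 20. Magi1 and Oxr1 followed with 19 each, and Rybp, Dync2h1, Magi2 and Kirrel3 with 18 each. In all, 7277 protein-coding genes were nearest to at least 1 member, with a median of 2. The spacing differed among these genes. The 18 members nearest Rybp, which encodes a subunit of variant Polycomb repressive complex 1, lay within 0.422 Mb (42.6 per Mb) and those nearest Dync2h1 within 0.366 Mb (49.2 per Mb), whereas the 20 nearest Cdh9 spread over 2.07 Mb (9.66 per Mb). Nr5a2, which encodes an orphan nuclear receptor of the naive network, was nearest to 17 members within 0.709 Mb (24.0 per Mb). It is named as a listed naive gene. Several other genes also had 17, some more widely spaced and some, such as Arl15 at 49.9 per Mb, more closely.

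The 5 members with the highest fold enrichment were not near listed pluripotency genes. They lay nearest to 5530400C23Rik (8.54, chr6:133511803-133512365), Fam98a (7.68, chr17:76499939-76500753), Gm2832 (7.67, chr14:41264910-41265438), Pls3 (7.53, chrX:75734766-75735038) and Olfr31 (7.42, chr14:14309010-14309784). Repeat-masked sequence made up 97.0% of the first, 81.5% of the second and 75.0% of the fifth, and 10.0% of the third and 0% of the fourth. The sixth lay 13.7 kb upstream of Zfp42, at chr8:43320696-43321425, with a fold enrichment of 7.35. It was named after its values were seen.

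Naive pluripotency genes had members nearby in most cases. The 18 genes listed as naive factors include Tcf7l1, the repressor gene named above. Of the 18, 15 had a member within 50 kb of a start site, or 83.3% (60.8% to 94.2%). Over all protein-coding genes the share was 45.9%. It was 54.1% among genes with an ESC peak within 500 bp of a start site and 33.2% among genes without one. Esrrb had the most with 7 members, followed by Klf5 with 6 and by Zfp42 and Tcf7l1 with 5. Nr5a2 and Pou5f1, which encodes OCT4, had 3. Nanog, Klf2, Tbx3, Prdm14 and Sall4 had 2, while Tfcp2l1, Nr0b1 and Gbx2 had 1. Klf4, Sox2 and Stat3 had none. Klf4 and Sox2 each had 2 promoter-near ESC-only regions within 50 kb, and Stat3 had none of those either. Counted after the data had been seen, 12 of the 18 genes had 2 or more members against 19.7% of all protein-coding genes. With 5 or more there were 4 of the 18, Tcf7l1 among them, against 1.44%. These baselines are not limited to genes with an ESC peak at a start site. Members were counted around every start site, so genes with start sites far apart cover more sequence, and this was not adjusted for.

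The members around these genes differed in strength and place. The 7 at Esrrb had fold enrichments of 2.10 to 4.02 and the 6 at Klf5 of 2.41 to 3.82. Of the 5 at Zfp42, 1 stood at 7.35 and the others lay between 2.20 and 2.65. The single member at Nr0b1, 10.2 kb upstream, had a fold enrichment of 5.88, and the stronger of the 2 members at Prdm14 reached 4.49 at 41.6 kb downstream. The members at Nanog had 3.79 at 12.3 kb and 2.47 at 19.1 kb downstream, and those at Pou5f1 between 2.74 and 3.00. The strongest member at Sall4 lay 23.2 kb upstream with a fold enrichment of 4.55.

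The other lists gave a mixed picture. Of 15 other pluripotency markers, 12 had a member within 50 kb (80.0%, 54.8% to 93.0%), with 4 at Dppa3 and Gdf3, which are neighbours and share them, and none at Dppa5a, Lin28a and Utf1. Of 12 epithelial genes, 7 had one (58.3%, 32.0% to 80.7%), with none at Cdh1, the gene of E-cadherin, which had 2 distal ESC regions with a reprogramming peak instead. Formative and germ-layer factors had one in 7 of 13 (53.8%, 29.1% to 76.8%), and fibroblast and mesenchymal genes in 10 of 18 (55.6%, 33.7% to 75.4%). Of 10 housekeeping genes, 9 had one (90.0%, 59.6% to 98.2%), so that a member within 50 kb did not set the naive list apart from genes active in all cells. The median number per gene was 2 for naive factors and 1 for housekeeping genes, of which 3 of 10 had 2 or more. Distal MEF-only regions lay within 50 kb of 88.9% of the fibroblast genes and 55.6% of the naive factors, against 46.5% of all protein-coding genes. Distal ESC regions with a reprogramming peak lay near 5 of the 18 naive factors (27.8%), against 11.5% of all protein-coding genes.

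**Figure D2:**
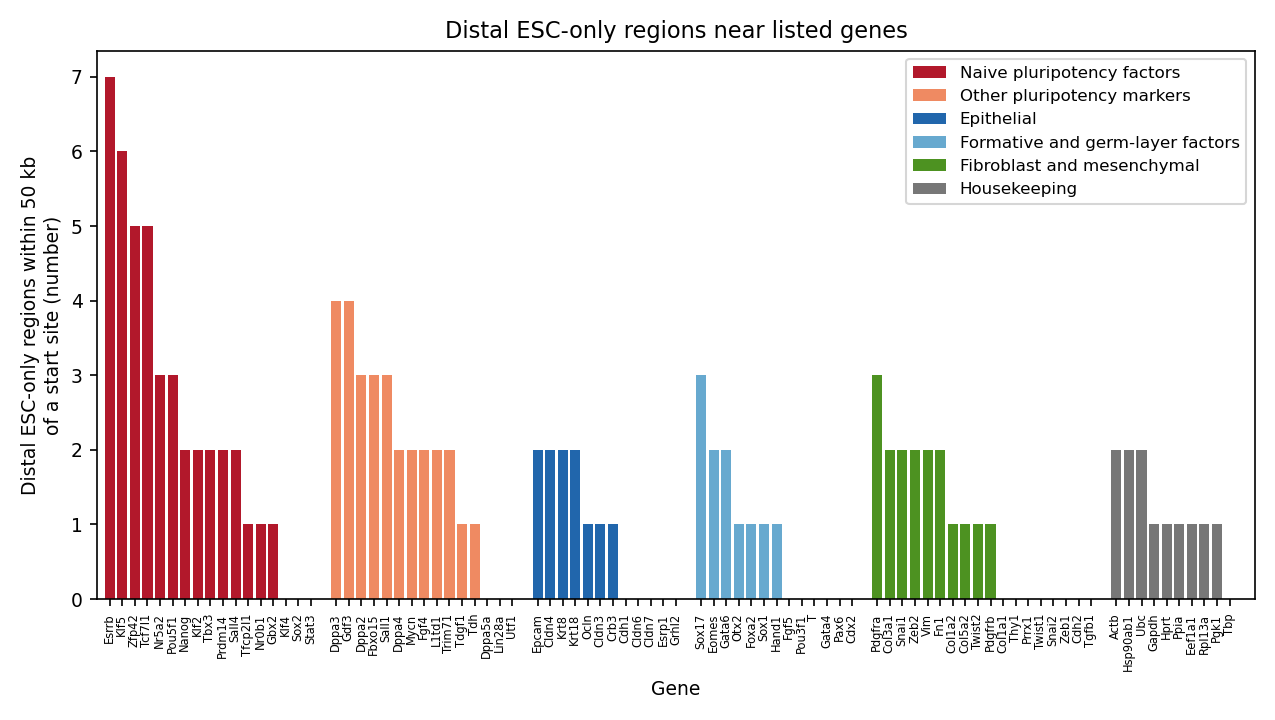
Number of distal ESC-only regions within 50 kb of a start site (vertical axis) for the genes of the 6 lists that are reported by name (horizontal axis, bars coloured by list). Esrrb with 7, Klf5 with 6, and Zfp42 and Tcf7l1 with 5 stand highest, and no gene of the fibroblast, housekeeping, epithelial or formative lists exceeds 3.

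The peaks at start sites gave a check of the labels. In the ESC list 17 of 18 naive factors had a peak within 500 bp of a start site, and 12 of 15 other pluripotency markers did. Nanog, Nr0b1, Zfp42, Dppa2, Dppa4 and Gdf3 had one in ESCs and in no other list. In the MEF list all 18 fibroblast genes had a start-site peak and 13 of the naive factors, and in ESCs 14 of the fibroblast genes did. Prdm14, Dppa3, Dppa5a and Lin28a had no ESC peak at a start site.

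Sequence played no part in choosing the members, so their windows could be compared with others. Matches on either strand were counted in the 200 bp window of each member and in flanking windows of that length, 1 kb to the left and to the right. The octamer was ATGCAAAT, the SOX motif CCATTGT with its variant CCTTTGT, the KLF motif CCACACCC, CCACGCCC, CCCCACCC or CCCCGCCC, and the ESRRB motif TCAAGGTCA. The OCT4-SOX2 composite, TFCP2L1 and CTCF motifs were longer and are given by name. A match is a description of letters and not a bound site. All differences are in percentage points with 95% Newcombe intervals.

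Motifs of the OCT4 and SOX2 partnership were more frequent in members than beside them. SOX matches were found in 14.5% of members and 7.09% of flanking windows, a difference of 7.40 (6.81 to 8.0). The octamer was in 3.39% against 1.40%, a difference of 2.00 (1.71 to 2.30). The composite was rare, in 60 members or 0.348% against 0.0579%, a difference of 0.290 (0.206 to 0.391), and its ratio of 6.00 was the highest of the pluripotency-related motifs. The composite contains a SOX-like part, so it overlapped a SOX match in many windows, as in those nearest Zfp42 and Zfpm2. SOX and octamer matches were more frequent in members on 20 of 20 chromosomes and the composite on 19. With masked bases not searched, the difference was 3.84 for SOX (3.36 to 4.33) and 1.10 for the octamer (0.882 to 1.34).

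Other motifs of the naive network followed. KLF matches were in 8.71% of members and 4.70% of flanks, a difference of 4.01 (3.54 to 4.49). ESRRB matches were in 319 members, 1.85% against 0.536%, a difference of 1.31 (1.10 to 1.54). TFCP2L1 matches were in 3.67% against 1.97%, a difference of 1.71 (1.40 to 2.03) that was 0.689 with flanks reweighted to the members' GC content. Each of the 3 was more frequent in members on 20 of 20 chromosomes. STAT3 matches (TTCCNGGAA) were in 1.02% against 0.539%, and TCF7L1 matches (AGATCAAAG) in 0.683% against 0.301%, a difference of 0.382 (0.253 to 0.527) that was 0.159 (-0.0751 to 0.441) with ESC peaks of −log10 q of 5 or more. For NR5A2 (TCAAGGCCA) and PRDM14 (GGTCTCTAA) the intervals of the difference included 0, at -0.0749 to 0.290 and -0.0873 to 0.0458. Of all members, 31.2% held at least 1 of these 10 motifs (30.5% to 31.9%), against 16.5% of flanking windows (16.1% to 16.9%). At least 2 of them were in 3.85% of members and 1.13% of flanks. The greater part of the members thus held none of these exact sequences.

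Motifs not specific to ESCs were also counted. TEAD matches (ACATTCCA, ACATTCCT, GCATTCCA or GCATTCCT), read by the partners of YAP, were in 8.79% of members and 3.22% of flanks, a difference of 5.57 (5.11 to 6.04), or 3.40 (3.02 to 3.80) with masked bases not searched. CTCF matches were in 1.08% against 0.0927%, which at 11.6 was the highest ratio of the 18 motifs. MYC matches (CACGTG) were in 2.78% against 2.10%, a difference of 0.683 (0.401 to 0.978). Its interval included 0 with the higher-scoring ESC peaks, at 0.398 (-0.0241 to 0.849), and with ESC peaks of −log10 q of 5 or more, at 0.170 (-0.309 to 0.691). GRHL matches (AACCGGTT) were in 19 members. OTX2 matches (GGGATTA) were less frequent in members, 2.36% against 3.62%, a difference of -1.26 (-1.56 to -0.958), which was -0.182 (-0.370 to 0.0154) with masked bases not searched. For RUNX (TGTGGTTA or TGTGGTTT) the interval included 0, at -0.442 to 0.117. The same held for AGATAAG, the motif of GATA factors, at -0.459 to 0.134. AP-1 matches (TGACTCA and its reverse complement TGAGTCA), a motif of fibroblast enhancers, were in 4.04% of members and 3.15% of their flanks, a difference of 0.892 (0.551 to 1.24) that was 0.281 (-0.00247 to 0.576) with masked bases not searched. In distal MEF-only regions they were in 25%, and the difference between members and those regions was -20.9 (-21.6 to -20.3). TEAD matches did not separate these classes at this precision, at 8.79% and 9.33%, a difference of -0.541 (-1.11 to 0.0289).

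**Figure D3:**
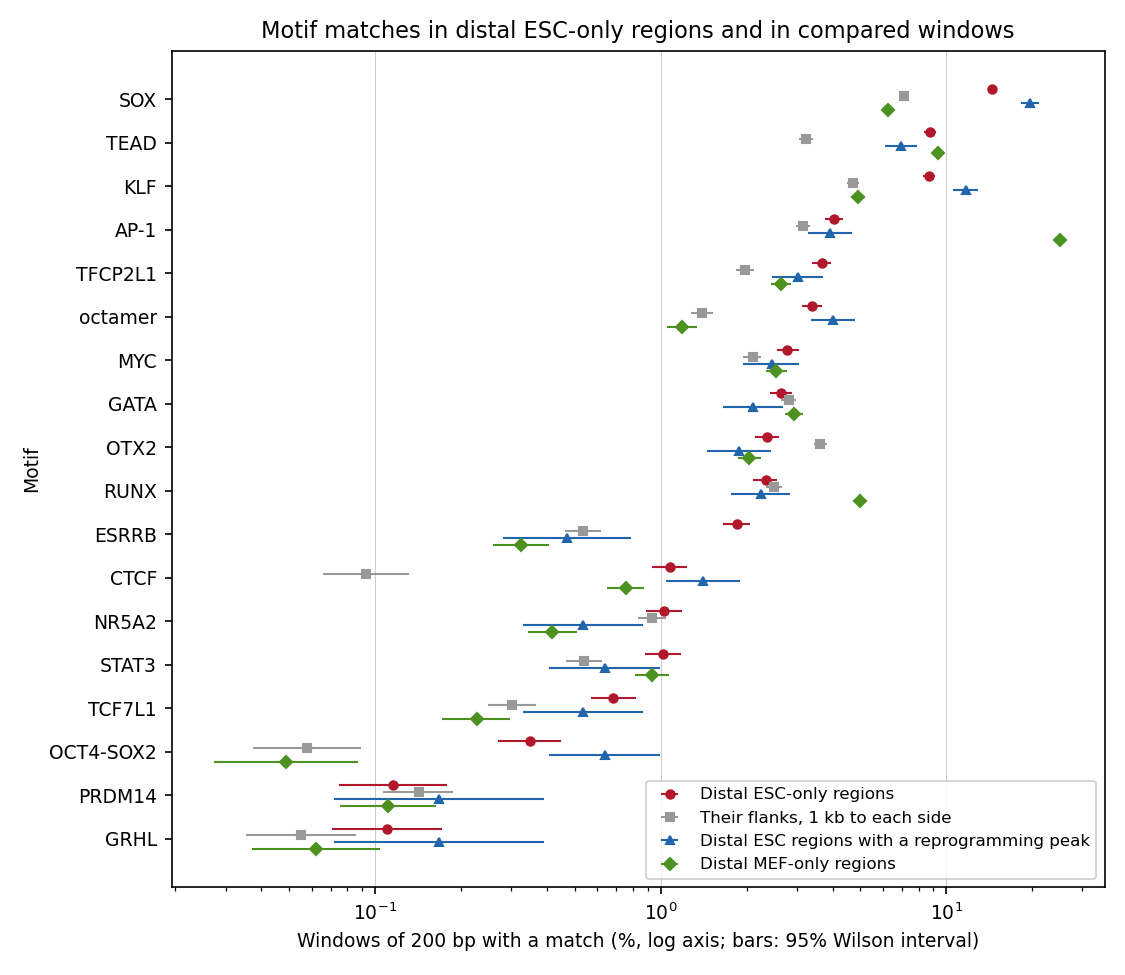
Share of 200 bp windows with a match to each of the 18 motifs (%, log axis, bars are 95% Wilson intervals) in distal ESC-only regions, their flanking windows, distal ESC regions with a reprogramming peak and distal MEF-only regions. SOX matches stand at 14.5% in members and 7.09% in flanks, and AP-1 matches at 25% in MEF-only regions against 4.04% in members.

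For 8 of the 18 motifs, matches were plotted along the members and were most frequent close to the peak midpoint. In the 50 bp centred 25 bp past the midpoint, SOX matches stood at 41.3 per 1000 members, against 18 and 19.1 in the bins 975 bp to the left and right. TEAD matches stood at 25.4 against 8.46 and 8.63, and the composite at 1.10 against 0.290 and 0.0579. ESRRB matches reached 5.5 in the bin centred at 75 bp, against 1.39 and 1.56 at the edges. OTX2 matches, not plotted, stood at 6.31 beside the midpoint, below the 7.99 and 8.69 at the edges.

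**Figure D4:**
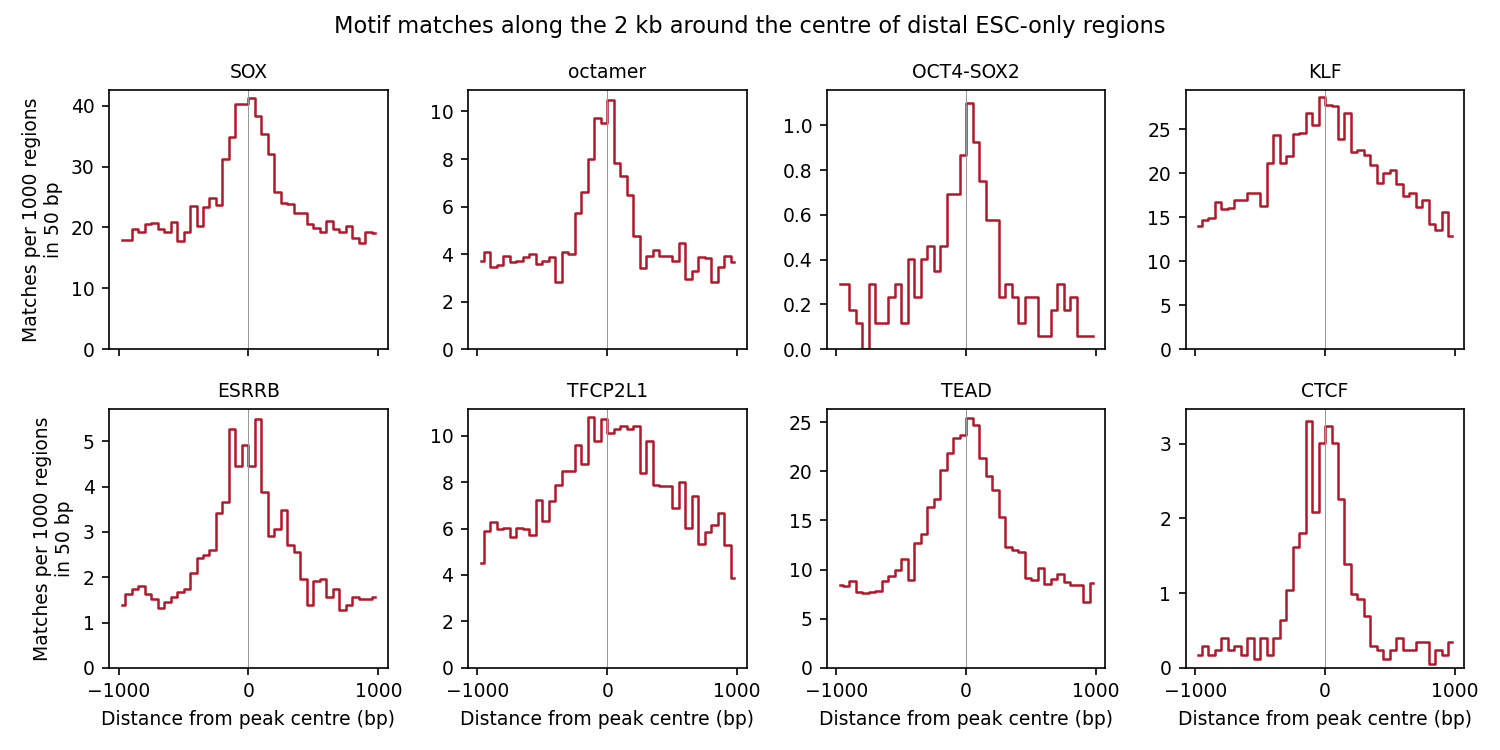
Matches per 1000 members in bins of 50 bp (vertical axis) along the 2 kb around the midpoint of the ESC peak (horizontal axis, bp), in 1 panel for each of 8 motifs: SOX, octamer, OCT4-SOX2, KLF, ESRRB, TFCP2L1, TEAD and CTCF. The lines of these 8 are highest near 0, for SOX at 41.3 per 1000 in the bin 25 bp past the midpoint against 18 at the left edge.

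The comparison with distal ESC regions that had a reprogramming peak asked which sequences set apart ESC sites with no peak during OSKM expression. SOX and KLF matches were less frequent in members. SOX matches were in 14.5% of members and 19.7% of regions with a reprogramming peak, a difference of -5.17 (-6.73 to -3.69), which was -2.26 (-3.84 to -0.756) with the same number of peaks in each list. KLF matches were in 8.71% and 11.7%, a difference of -3.01 (-4.29 to -1.83). The composite was in 0.348% and 0.637%, a difference of -0.289 (-0.653 to -0.0396), resting on 60 and 19 regions. Its interval included 0 in 4 of 12 alternatives, for example at -0.229 (-0.644 to 0.0364) beyond 10 kb from start sites and at -0.174 (-0.498 to 0.0373) with masked bases not searched. The octamer was in 3.39% and 4.02%, and its interval included 0 (-1.43 to 0.0798). MYC matches were in 2.78% and 2.45%, with an interval of -0.327 to 0.893.

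ESRRB matches ran the other way. They were in 1.85% of members and in 14 of the 2985 regions with a reprogramming peak (0.469%), a difference of 1.38 (1.01 to 1.66). In the latter the flanking windows also stood at 0.469%, so that no excess over the flanks was found there. NR5A2 matches, which differ from the ESRRB motif by a single letter, were in 1.03% and 0.536%, a difference of 0.495 (0.134 to 0.757). The flanks stood at 0.930% for members and 1.01% for the compared regions, so NR5A2 showed no clear excess over the flanks in either class. Mostly masked members held NR5A2 matches in 1.70% and the rest in 0.813%, and this contrast was not repeated with masked bases left out. ESRRB and NR5A2 are orphan nuclear receptors of the naive network and were not among the delivered factors. Whether delivery of a factor bears on any of these contrasts was not tested. TEAD matches were also more frequent in members, 8.79% against 6.93%, a difference of 1.85 (0.800 to 2.81), but this did not hold under other searches. The difference was 0.156 (-0.799 to 1.01) with masked bases not searched and 0.677 (-0.776 to 2.05) in windows of 400 bp, and it turned to -3.41 (-5.11 to -1.77) when the whole ESC peak was searched. At the promoter-near ESC-only regions ESRRB matches were in 1.70%, with a difference from members of 0.150 (-0.226 to 0.495).

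Repeated DNA made up a sizeable share of the members. A window was called mostly repeat-masked when over 50% of its bases were in lower case in the reference sequence. This held for 24.5% of members (23.9% to 25.2%), close to their own flanks at 25.2%, with a difference of -0.710 (-1.49 to 0.0818). In the other classes the open windows held fewer, with 17.2% in distal ESC regions with a reprogramming peak, 17.8% in promoter-near ESC-only regions and 5.22% in distal MEF-only regions, whose flanks stood at 18%. The members exceeded these classes by 7.32 (5.79 to 8.78), 6.67 (5.57 to 7.75) and 19.3 (18.6 to 20), on 20 of 20 chromosomes in each case. The share was larger among strong members, at 18.1% in the lowest quartile of ESC fold enrichment and 36.7% in the highest.

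Some motifs sat in this masked sequence and others outside it. SOX matches were in 20.1% of mostly masked members and 12.7% of the rest, and TEAD matches in 10.4% and 8.26%. The composite was in 4 of 4231 mostly masked members and 56 of the 13034 others, and KLF matches in 6.90% and 9.30%. CTCF matches were in 0.378% and 1.30%. ESRRB matches were about as frequent in both, at 1.91% and 1.83%.

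A part of the masked members were related copies of the same sequence. Words of 24 bases that recurred among the member windows seeded 8 families, a fixed number. Each seed was the word held by the most members after a deduction for the flanking windows that held it. Every window was then aligned to the representative of each family, with at least 100 aligned bases counted as a copy. The families were built from the members themselves after the data had been seen, so their excess in members is a description. Together they held 1174 members, 6.80% of all (6.43% to 7.19%) and 27.3% of the mostly masked ones. Family 1 had 373 members, family 2 had 228, family 3 had 119, family 4 had 82, family 5 had 183, family 6 had 76, family 7 had 81 and family 8 had 83. Families 3 and 4 shared 36 members, families 1 and 8 shared 11 and families 2 and 8 shared 4, so these pairs are not separate sets of members. Whether their representatives are related sequence was not tested. Against the representatives, the copies found across the genome had median identities of 80.2% in family 5 to 90.3% in family 7, with 82.1% in family 1 and 85.3% in family 3. Family 1 had members on 20 chromosomes.

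The families were rare beside the members and in MEF sites, and some were present in other ESC sites. Rarity in the flanks was favoured by the choice of seed words, so it is a description. Of 34530 flanking windows, family 1 matched 2, family 2 none and family 7, the most frequent there, 46. Of 22502 distal MEF-only windows, families 1 and 8 matched 2 each and the other 6 families none. A count of 0 allows a share of up to 0.0133% if taken as 3 counts, and 0.0171% by the Wilson interval. In distal ESC regions with a reprogramming peak, family 1 was in 3.32% of windows against 2.16% of members, family 2 in 1.74% against 1.32% and family 8 in 0.603% against 0.481%, whereas family 5 was in 0.0670% against 1.06%. Family 1 was also in 1.06% of promoter-near ESC-only windows.

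Each family carried its own set of motif matches. In family 1, whose representative is printed above, 306 of 373 members held a SOX match. In family 2 SOX matches were in 96 of 228 and TFCP2L1 matches in 23. Family 3 combined the octamer, in 94 of 119 members, with TEAD, in 76. Family 4 held TEAD matches in 79 of 82 members, SOX matches in 45 and the octamer in 30. Family 8 held SOX matches in 61 of 83 and RUNX matches in 56, and the Nr0b1 window printed above belonged to it. Families 5, 6 and 7 had no motif of the 18 in more than 13 members. The composite was in 1 of the 1174 members of families and ESRRB matches in 5, or 0.426%, against 1.95% of the members in no family.

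The families stood among the strongest members. The median ESC fold enrichment was 4.56 in family 2, 4.50 in family 6 and 4.14 in family 1, and 3.41 in family 7, the same as over all members. Of the 100 members with the highest fold enrichment, 32 belonged to a family. The share in a family was 2.08% in the lowest quartile of fold enrichment and 14.7% in the highest. The strongest member of all, nearest 5530400C23Rik, was a copy of family 2.

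The genome held more copies than the members, and the share with a peak is given by group. The copies include the members from which the families were built, which by the rule have an ESC peak and no other. High ESC shares and low MEF shares are thus partly fixed by the rule and are descriptions. Family 1 had 2807 copies, of which 35.2% overlapped an ESC peak (33.4% to 36.9%) and 0.819% a MEF peak (0.547% to 1.23%). Family 2 had 1096 copies, of which 63.0% overlapped an ESC peak (60.1% to 65.9%) and 1.19% a MEF peak. Families 3, 4 and 5 had ESC peaks on 31.9%, 33.9% and 38.8% of their copies, family 8 on 21.9% and family 6 on 17.2%. Family 7 was the largest with 13507 copies, of which 2.47% had an ESC peak.

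Among copies with an ESC peak, the families differed in peaks during reprogramming, a measure over all copies and not only members. The members among these copies have no such peak by the rule. Of the ESC copies of family 1, 19.7% also had a day 5 or day 10 peak (17.3% to 22.3%), and family 2 stood at 17.4% (14.7% to 20.4%) and family 8 at 20.1% (16.7% to 24.0%). Families 3, 4, 5 and 7 stood at 4.42%, 4.73%, 2.84% and 1.80%, and none of the 233 ESC copies of family 6 had one. This allows a share of up to 1.29% if taken as 3 counts, and 1.62% by the Wilson interval. Family 1 exceeded family 5 by 16.8 percentage points (14.0 to 19.6) and family 3 by 15.2 (11.8 to 18.3), whereas its difference from family 2 was 2.29 (-1.53 to 5.99) and from family 8 it was -0.430 (-4.96 to 3.83). The 3 families with the higher shares were those in which SOX was the most frequent motif. Families 3 and 4, in which the octamer or TEAD was the most frequent and SOX matches were in 26 of 119 and 45 of 82 members, were not among them. The pattern did not hold for the share of members with SOX, which was larger in family 4 than in family 2, at 96 of 228. Family 8 shared 11 members with family 1 and 4 with family 2, so the 3 families are not separate cases. The pattern was seen after the values and has no test.

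**Figure D5:**
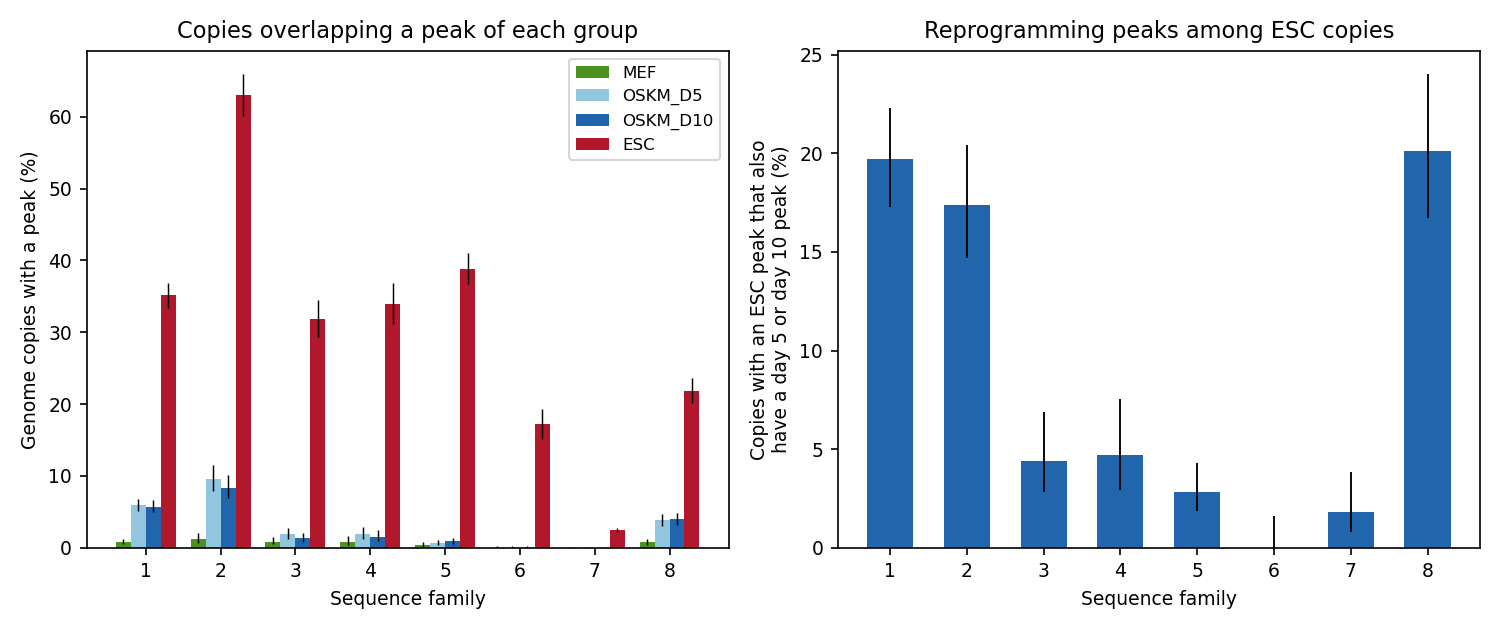
Left, the share of all genome copies of each sequence family that overlap a peak in each of the 4 groups (%, bars are 95% Wilson intervals), with ESC peaks on 2.47% to 63.0% of copies. Right, the share of copies with an ESC peak that also have a day 5 or day 10 peak, with families 1, 2 and 8 between 17.4% and 20.1% and the other families below 5%. Both panels include the members, which by the rule have an ESC peak and no other.

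Outside the families the 6 contrasts computed against distal ESC regions with a reprogramming peak kept their direction. Among 16091 members and 2813 compared regions in no family, SOX matches differed by -4.37 (-5.88 to -2.94), KLF matches by -3.23 (-4.57 to -1.97), ESRRB matches by 1.45 (1.06 to 1.76) and TEAD matches by 1.41 (0.324 to 2.40). The octamer differed by -1.14 (-1.98 to -0.402), so its interval no longer included 0, and that of the composite did, at -0.238 (-0.608 to 0.0125).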

How the data were processed

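Open chromatin was measured by ATAC-seq in 8 libraries. The authors aligned the reads to mm10, per the labels and the methods, with Bowtie2 (version 2.2.0 in the submitters' processing notes, another version in the methods), removed reads of low mapping quality (the thresholds of both sources differ), kept uniquely mapped reads and dropped mitochondrial ones. Unique mapping can lower the signal over near-identical repeat copies. The peak caller, its settings and any shift of read ends are not given in the sources used here. The authors deposited 1 headerless peak list per group, with a score, a fold enrichment over background (a ratio), a −log10 p-value and a −log10 q-value for each peak. Replicate 1 gave the peaks their names and the lists are named as intersections, so an interval looks like the overlap of both replicates' peaks, 209 members were under 100 bp wide, and the fold may belong to the whole replicate 1 peak. Read depth is unknown. There were 0 columns of other series.

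Peaks within 400 bp were merged, and start sites came from GENCODE mouse release M21. Windows were read from the RefSeq copy of GRCm38. Its lower-case letters were taken as repeat-masked, and 18 motifs were searched in it. Families were seeded by 24-base words frequent in members and rare in their flanks, and aligned with blastn 2.17.0 (at least 100 bases, E-value 1e-10). Shares have 95% Wilson intervals and differences 95% Newcombe intervals, and the count of chromosomes with the same direction is given over 20 chromosomes. Scripts used python 3.11.15, numpy 2.4.6, pandas 2.3.3, pysam 0.24.0, matplotlib 3.10.9 and samtools 1.23.1 and were tested on simulated data. The members, gene lists and motifs were chosen with earlier results of these data known. Every gene of the 6 lists was counted, and 1 gene of the naive list is not reported here by name. Beyond them, the text names the 10 genes nearest to the most members (with ties), the 5 longest runs, the 5 members of highest fold enrichment, and 1 sequence for each of at most 8 naive pluripotency genes. The alternatives tried are given in the closing section.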

Additional observations from a re-analysis of the deposited data

How the results depend on the processing

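No paired analysis was possible because the deposited data hold 1 peak list per group, so the replicate numbers of the labels have no lists of their own, and leaving out a replicate could not be run for the same reason. Of 303 alternative values, 198 moved by less than the main interval or stayed within 1.5 times the main count, 104 moved by more without turning, and 1 turned. The one that turned was TEAD in members minus distal ESC regions with a reprogramming peak, at -3.41 when the whole ESC peak was searched. The number of members fell to 6914 with the higher-scoring ESC peaks only and to 4715 with ESC peaks of −log10 q of 5 or more, a setting chosen after seeing the data. Members were 36.5% of ESC regions with touching peaks merged, 34.7% with merging at 1 kb, 26.9% at over 10 kb from start sites, 44.9% at over 1 kb, 44.7% with protein-coding transcripts only, 28.6% with the higher-scoring ESC peaks, 34.2% with lists of equal length and 26.3% at −log10 q of 5. The mostly repeat-masked share was 25.7% at over 10 kb, 23.5% with protein-coding transcripts, 25.2% at −log10 q of 2 in all lists, 30.9% with the higher-scoring ESC peaks, 26.4% with equal lists, 22.9% and 25.9% in windows of 400 and 100 bp, and 35.0% at −log10 q of 5. Differences from the flanks, in percentage points, were for the OCT4-SOX2 composite 0.419 with the higher-scoring ESC peaks, 0.487 and 0.153 in windows of 400 and 100 bp and 0.509 at −log10 q of 5. For ESRRB they were 2.29 and 0.556 in those windows, 0.695 with masked bases not searched and 1.54 at −log10 q of 5. For KLF they were 3.45, 6.95, 2.33, 2.03 with flanks reweighted to the members' GC content, 3.04 with masked bases not searched and 3.27 at −log10 q of 5. Against distal ESC regions with a reprogramming peak, ESRRB differed by 2.09 in windows of 400 bp, 1.81 over the whole peak and 0.816 with masked bases not searched, and its interval excluded 0 in 12 of 12 alternatives with one. The composite differed by -0.654 over the whole peak, and its interval excluded 0 in 8 of 12. Naive pluripotency genes with a member were 94.4% at over 1 kb, 94.4% with protein-coding transcripts and 100% within 100 kb, and 77.8% at −log10 q of 2 in all lists, 77.8% with equal lists, 72.2% with the higher-scoring ESC peaks, 61.1% at −log10 q of 5 and 61.1% within 20 kb. Family sizes also depended on the alignment length, with 161 to 454 members in family 1 between at least 150 and at least 60 bases, and 26 to 159 in family 8. The causes were not tested. Without read counts, a site with no peak in a list may lie below that list's detection limit.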

Other observations

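The regions that the study's own ChIP-qPCR primers amplify were located in mm10 from their sequences and set against the region classes. None of the amplified stretches at Cdh1, Tdh, Sall1 and Sall4 lay in a distal ESC-only region. For many of them the rule fixed this. The start-site and Tdh enhancer amplicons that lay in a region lay in regions overlapping a start site. Some other amplicons lay in no region. The Cdh1 enhancer amplicon lay in a distal ESC region with peaks at day 5 and day 10 and an ESC fold enrichment of 2.64, 27405 bp from the nearest start site. An amplicon at a Sall1 enhancer lay in a region with peaks in all 4 groups, with an ESC fold enrichment of 3.58. Another Sall1 enhancer amplicon lay in a region with a day 10 peak only. A Sall4 enhancer amplicon lay in a region with peaks in MEFs and at day 5 and day 10 and none in ESCs.

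Members were most frequent per Mb on chromosome 6, at 7.64, and among the autosomes least frequent on chromosome 7, at 5.67. Relative to all distal ESC regions of the chromosome, members were 72.1% on chromosome 10 and 63.8% on chromosome 11.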
